A study of Mus musculus with 9 samples.

Results

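The 8 genes described here belong to the cGMP branch of smooth muscle relaxation and to myosin phosphatase, the enzyme on which that branch converges: Prkg1, Mrvi1, Pde5a, Pde3a, Pde1a, Ppp1r12a, Ppp1r12b and Ppp1r14a. They were chosen by name, with earlier results of these data known, from the 17093 genes that the 3 deposited comparison tables held between them. All 8 stood in all 3 tables and passed the filter on low values. RNA was sequenced from the media of the mouse femoral artery, the smooth muscle layer of the vessel wall, in C57BL/6 mice. One group of 3 libraries came from arteries taken 14 days after wire injury in mice given VS-4718, an inhibitor of focal adhesion kinase (FAK), by oral gavage at 50 mg/kg in 2 doses a day for 2 weeks. A second group of 3 libraries came from injured arteries at 14 days without the inhibitor, and the third group of 3 libraries came from sham-operated arteries without wire injury. The labels name a citrate vehicle but do not say which groups received it. Before lysis the fat and adventitia had been dissected away, and the lumen had been rinsed with lysis reagent to clear endothelium and immune cells. The labels do not say whether replicates came from separate animals, so the p-values measure the spread between these libraries, which may be technical.

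Cyclic GMP is made in smooth muscle by soluble guanylyl cyclase, which nitric oxide activates, and by the natriuretic peptide receptors encoded by Npr1 and Npr2. It activates the protein kinase encoded by Prkg1, which lowers the release of calcium from internal stores and activates myosin phosphatase, so that the myosin light chain is dephosphorylated and the muscle relaxes. Phosphodiesterases end the signal by hydrolysing the cyclic nucleotide.

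The roles of the 8 genes divide into signal, breakdown and phosphatase. Prkg1 (chromosome 19, 30564489 to 31765033, minus strand) encodes the cGMP-dependent kinase. Mrvi1 (chromosome 7, 110868266 to 110982461, minus strand), also called Irag1, encodes the substrate that ties this kinase to the inositol trisphosphate receptor. Pde5a (chromosome 3, 122728947 to 122859374, plus strand) encodes the cGMP-specific phosphodiesterase that sildenafil inhibits. Pde3a (chromosome 6, 141249269 to 141507448, plus strand) encodes a cAMP phosphodiesterase that cGMP inhibits. Pde1a (chromosome 2, 79834453 to 80129458, minus strand) encodes a phosphodiesterase that calcium and calmodulin activate. Ppp1r12a (chromosome 10, 108162193 to 108284475, plus strand) and Ppp1r12b (chromosome 1, 134754658 to 134955942, minus strand) encode myosin-binding, targeting subunits of myosin phosphatase. Ppp1r14a (chromosome 7, 29289308 to 29293801, plus strand) encodes a small inhibitor of the same phosphatase that protein kinase C activates. Positions are those of GENCODE M21 on GRCm38, the build named in the submitters' processing notes. The exons of Pde3a share 741 bases (5.82% of its exon length) with Gm28523 on the opposite strand, and those of Ppp1r12b share 710 bases (4.74%) with Gm28892. Whether the counting used strand is not given in the sources used here, so these reads cannot be told apart.

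In the injured media 6 of the 8 genes were at 21.5% to 43.1% of their sham mean, and in the inhibitor-treated injured media the same 6 were at 90.8% to 112% of it. Mrvi1 fell furthest. Prkg1 varied widely between the injured libraries, and Pde1a was at 89.9% of its sham mean in injured media and at 94.96% in inhibitor-treated injured media. Levels below are recovered read counts divided by 1 scaling factor per library over all 9 libraries, called normalised read counts, and tests are limma tests on log2(normalised count + 1) within the table of each comparison.

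**Figure D1:**
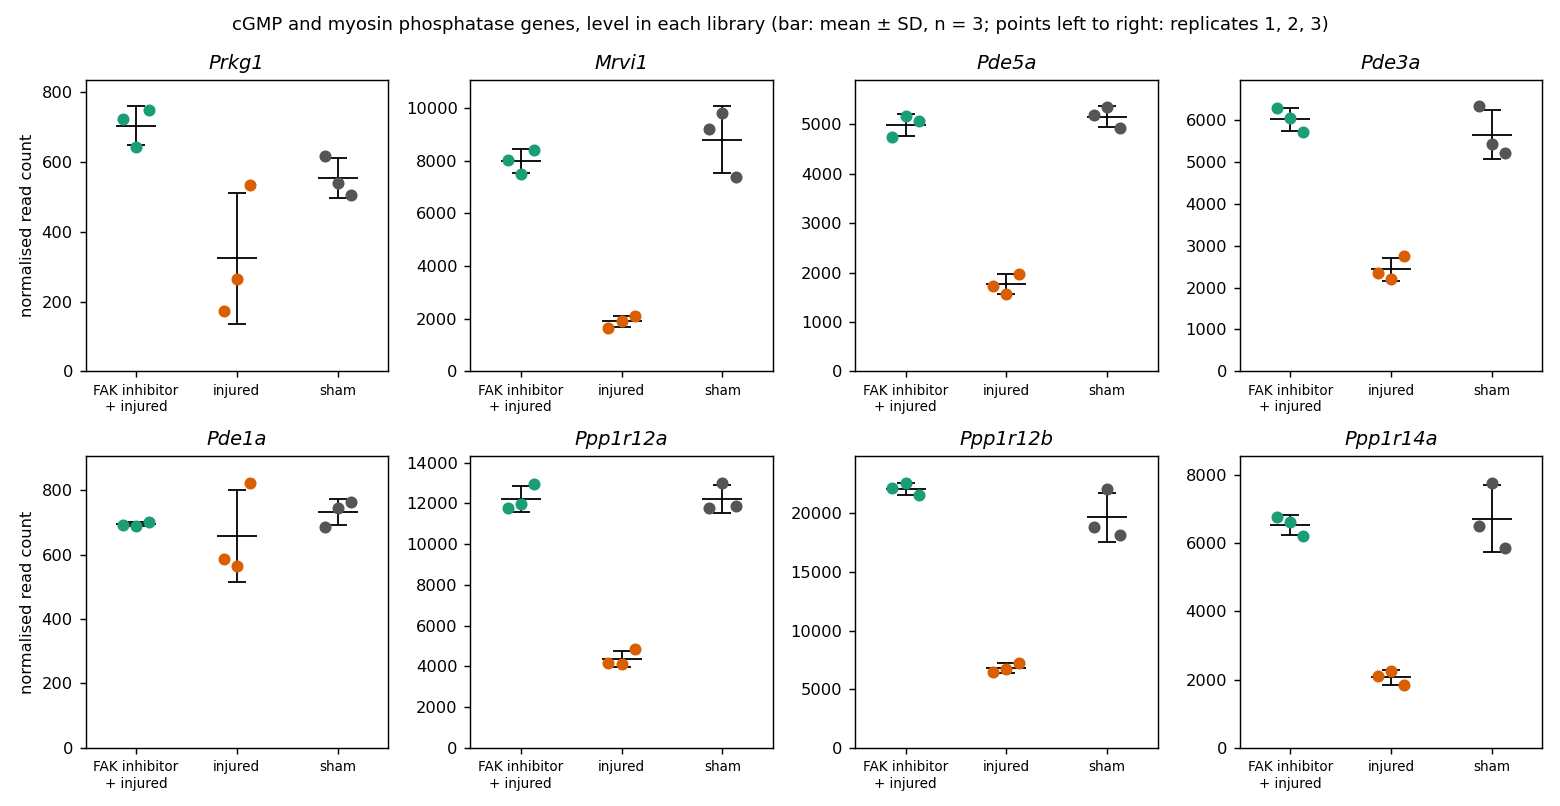
Normalised read count (linear axis from 0) of each of the 8 genes in every library, with FAK inhibitor-treated injured, injured and sham libraries from left to right in each panel. Points are libraries and bars the mean with its SD (n = 3 each). The injured points lie below the other points in the panels of Mrvi1, Pde5a, Pde3a, Ppp1r12a, Ppp1r12b and Ppp1r14a, whereas in the panels of Prkg1 and Pde1a injured replicate 3, at 533 and 824, lies among or above the sham points.

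Promoter sequence is shown for the gene that fell furthest with injury, for the gene with the most matches to the motif searched, and for a gene that did not pass the test in any comparison. RefSeq windows on GRCm38.p6, from 250 bases before to 50 after a transcript start, were available for 7 of the 8 genes, as 13 windows, and Pde3a had none in the table used. Capitals mark matches to GGAATG on either strand (CATTCC when read on the printed strand), the core letters of the motif bound by TEAD factors, which is also called the M-CAT element. The Mrvi1 window lies at chr7:110982412-110982711, the Ppp1r12b window at chr1:134803793-134804092 and the Pde1a window at chr2:79908350-79908649. The Ppp1r12b and Pde1a windows are each upstream of an internal start. All 3 are on the minus strand and are printed 5′ to 3′.
Mrvi1: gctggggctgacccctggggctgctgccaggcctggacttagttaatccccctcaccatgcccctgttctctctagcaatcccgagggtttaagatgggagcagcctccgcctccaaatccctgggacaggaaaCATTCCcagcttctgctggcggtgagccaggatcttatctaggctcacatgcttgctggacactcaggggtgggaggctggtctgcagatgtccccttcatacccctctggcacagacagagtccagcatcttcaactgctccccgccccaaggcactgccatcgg
Ppp1r12b: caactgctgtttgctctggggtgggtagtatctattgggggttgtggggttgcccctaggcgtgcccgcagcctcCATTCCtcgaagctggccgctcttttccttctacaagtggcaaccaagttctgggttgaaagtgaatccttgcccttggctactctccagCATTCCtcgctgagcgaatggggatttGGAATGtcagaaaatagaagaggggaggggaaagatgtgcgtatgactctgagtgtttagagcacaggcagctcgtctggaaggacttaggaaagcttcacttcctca
Pde1a: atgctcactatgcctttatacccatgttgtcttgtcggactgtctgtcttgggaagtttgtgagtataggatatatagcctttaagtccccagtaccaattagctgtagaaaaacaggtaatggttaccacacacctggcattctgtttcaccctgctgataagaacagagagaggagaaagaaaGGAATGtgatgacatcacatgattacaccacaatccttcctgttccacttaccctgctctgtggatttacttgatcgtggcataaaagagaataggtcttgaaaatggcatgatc
The Ppp1r12b window held 3 matches, which began 175, 85 and 58 bases before the start. The Mrvi1 window held 1 match at 116 bases before the start, and the Pde1a window 1 match at 65. A second Pde1a window, also upstream of an internal start, held 1 match. Thus 4 of the 13 windows, from 3 of the 7 genes, held GGAATG, against 14.7% of 32851 promoter windows of the same length. The windows near the 5′ end of Pde1a (chr2:80128922-80129221 and chr2:80129363-80129662) and of Ppp1r12b (chr1:134955891-134956190) held 0 matches. The CArG box bound by serum response factor was searched as CC, 6 letters that are each A or T, and GG on both strands. It was in 0 of the 13 windows and in 1.63% of all windows. A match describes letters, not binding.

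Prkg1, the kinase, was the least evenly measured of the 8 after injury. It had 722, 642 and 748 normalised read counts in inhibitor-treated injured libraries, 172, 266 and 533 in injured libraries, and 617, 538 and 505 in sham libraries. The third injured library stood at the level of the sham libraries, while the other two lay below every sham value, and all 3 inhibitor-treated values lay above all 3 sham values. Relative to injured media, Prkg1 was higher with the inhibitor by 1.28 ± 0.37 on the log2 scale (SE; limma, Benjamini-Hochberg adjusted p = 0.0314). Relative to sham, the injured difference of -0.93 ± 0.35 did not pass the test (limma, adjusted p = 0.0683, 95% confidence interval -1.74 to -0.13). Without injured replicate 3 the log2 difference was 1.72 (adjusted p = 0.00125) for inhibitor-treated over untreated injured media and -1.37 (adjusted p = 0.00122) for injured media over sham, by limma. Prkg1 passed for injury in 2 of 18 other settings, without injured replicate 3 and in 1 fit over all 9 libraries. The call for the inhibitor was lost when any other single library was left out (limma, adjusted p 0.0597 to 0.101), and in edgeR on the recovered reads (adjusted p = 0.0588).

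Mrvi1, the kinase's partner at the calcium store, had 8029, 7514 and 8429 normalised read counts in inhibitor-treated injured libraries, 1658, 1929.7 and 2097 in injured libraries, and 9194, 9827 and 7371 in sham libraries. The injured libraries were far below both other groups, and the other two groups overlapped. Mrvi1 rose 4.24-fold with the inhibitor relative to injured media (log2 difference 2.08 ± 0.11, limma adjusted p = 4.91e-05). In injured media it fell to 0.215 of the sham level (log2 difference -2.22 ± 0.15, limma adjusted p = 2.48e-05). Per kilobase of exon, the Mrvi1 to Prkg1 ratio of levels was 17.7 to 18.6 in inhibitor-treated injured libraries, 6.26 to 15.4 in injured libraries and 23.2 to 29.1 in sham libraries, so that the 3 groups did not overlap. The ratio was not tested.

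Of the phosphodiesterases, Pde5a had 4738, 5169 and 5073 normalised read counts in inhibitor-treated injured libraries, 1734, 1576 and 1979 in injured libraries, and 5192, 5348 and 4935 in sham libraries. All injured values lay below all others. Pde5a was 2.85-fold higher with the inhibitor than in injured media (log2 difference 1.51 ± 0.11, limma adjusted p = 0.000119), and the injured level was 0.339 of sham (log2 difference -1.56 ± 0.12, limma adjusted p = 4.2e-05). Pde3a, the cGMP-inhibited enzyme, had 6276, 6047 and 5718 normalised read counts in inhibitor-treated injured libraries, 2358, 2213 and 2743 in injured libraries, and 6329, 5423.5 and 5208 in sham libraries. Again the injured libraries were lowest and the other groups overlapped. Pde3a was 2.48-fold higher with the inhibitor than in injured media (log2 difference 1.31 ± 0.11, limma adjusted p = 0.000185), and the injured level was 0.429 of sham (log2 difference -1.22 ± 0.13, limma adjusted p = 0.000192).

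Pde1a differed from the other two phosphodiesterases. It had 693, 689.8 and 702 normalised read counts in inhibitor-treated injured libraries, 587, 563 and 824 in injured libraries, and 687, 746 and 763 in sham libraries. Injured replicates 1 and 2 were the lowest of the 9 libraries and injured replicate 3 was the highest. Neither the inhibitor-treated minus injured difference (0.10 ± 0.16 log2, 95% confidence interval -0.26 to 0.47, limma adjusted p = 0.626) nor the injured minus sham difference (-0.18 ± 0.16 log2, 95% confidence interval -0.54 to 0.18, limma adjusted p = 0.404) passed the test. Without injured replicate 3 both did, at 0.28 (adjusted p = 0.0324) and -0.35 (adjusted p = 0.0314) by limma, still well short of the differences of Pde5a and Pde3a. This leaves out the injured value that ran against both differences, and it was the only 1 of 18 other settings in which Pde1a passed. The Pde5a to Pde1a ratio of levels per kilobase, which does not depend on library scaling, was 4.18 to 4.58 in inhibitor-treated injured libraries, 1.47 to 1.81 in injured libraries and 3.95 to 4.62 in sham libraries. The injured libraries thus stood apart in the ratio of the 2 RNAs, with no overlap, and the other groups overlapped. The ratio was not tested, nor was whether both RNAs came from the same cells.

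The myosin phosphatase genes fell together after injury. Ppp1r12a, the targeting subunit of smooth muscle, had 11755, 11973 and 12964 normalised read counts in inhibitor-treated injured libraries, 4154, 4108 and 4828 in injured libraries, and 11767, 13019 and 11874 in sham libraries. Its injured level was 0.355 of sham (log2 difference -1.49 ± 0.12, limma adjusted p = 5.93e-05), and it was 2.81-fold higher with the inhibitor than in injured media (log2 difference 1.49 ± 0.10, limma adjusted p = 0.00011). Ppp1r12b, the related targeting subunit best known from striated muscle, had 22167, 22614 and 21593 normalised read counts in inhibitor-treated injured libraries, 6468, 6681 and 7265 in injured libraries, and 18833, 22069 and 18131 in sham libraries. Injured values were lowest, and 1 sham library lay among the inhibitor-treated values while the others were below them. Ppp1r12b was 3.26-fold higher with the inhibitor than in injured media (log2 difference 1.71 ± 0.10, limma adjusted p = 5.93e-05), and its injured level was 0.345 of sham (log2 difference -1.54 ± 0.14, limma adjusted p = 8.18e-05). Injured replicate 2, whose summed skeletal muscle markers reached 542762 against 32406 and 63313 in the other injured libraries, was in the middle of the injured values of Ppp1r12b. The part of skeletal muscle RNA in the level of Ppp1r12b was not tested.

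Ppp1r14a, the phosphatase inhibitor, had 6781, 6607 and 6215 normalised read counts in inhibitor-treated injured libraries, 2113, 2249 and 1830.3 in injured libraries, and 6514, 7778 and 5846 in sham libraries. It moved in the same direction as the phosphatase it inhibits, with injured values lowest and the other groups overlapping. It was 3.18-fold higher with the inhibitor than in injured media (log2 difference 1.67 ± 0.10, limma adjusted p = 7.23e-05), and its injured level was 0.307 of sham (log2 difference -1.70 ± 0.14, limma adjusted p = 6.33e-05). Per kilobase, the ratio of Ppp1r14a to Ppp1r12a levels was 2.81 to 3.38 in inhibitor-treated injured libraries, 2.22 to 3.21 in injured libraries and 2.89 to 3.505 in sham libraries, so all 3 groups overlapped. The ratio of Ppp1r12b to Ppp1r12a was 0.892 to 1.01 in inhibitor-treated injured libraries, 0.805 to 0.870 in injured libraries and 0.817 to 0.907 in sham libraries. The inhibitor-treated ratios lay above all injured ratios, while both groups overlapped with sham. The ratio of the 2 targeting subunits was not tested.

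Counted together, 7 of the 8 genes passed the test as higher in inhibitor-treated than in untreated injured media, where 17.6% of the 16901 genes tested did, and the groups of these 7 did not overlap, as for 51.6% of genes. In injured media against sham, 6 of the 8 passed as lower, where 16.8% of the 16278 genes tested did, and the groups of these 6 did not overlap, as for 51.3% of genes. Because the 8 genes were chosen with earlier results of these data known, these counts beside the shares describe the 8 and are not a test. Between inhibitor-treated injured media and sham, 0 of the 8 passed by limma, where 6.08% of the 16166 genes tested did in either direction. At an unadjusted p under 0.05, 1 of the 8 did, and the authors' deposited test, edgeR and DESeq2 called 0. Prkg1 was that gene, and the only one whose groups did not overlap, as for 27.9% of genes. It was higher with the inhibitor by 0.36 ± 0.10 on the log2 scale (95% confidence interval 0.13 to 0.59, limma adjusted p = 0.0828). For the other 7 the 95% confidence intervals of this difference all lay between -0.37 and 0.39 log2 and all spanned 0.

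**Figure D2:**
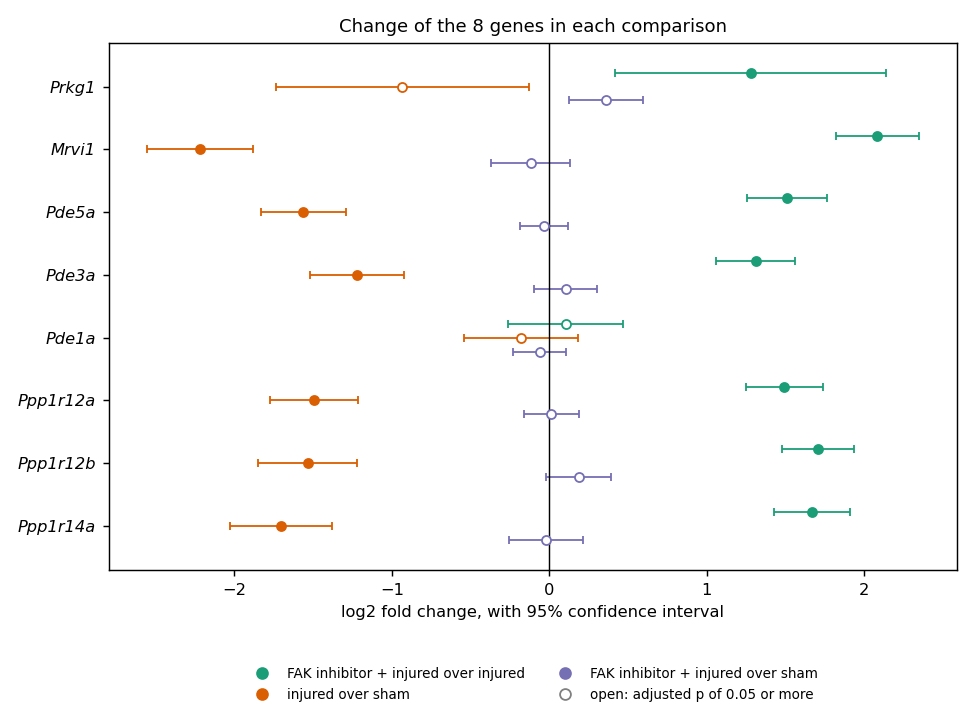
Log2 fold change of the 8 genes with 95% confidence intervals from limma, for FAK inhibitor-treated injured over injured, injured over sham, and FAK inhibitor-treated injured over sham; filled points had an adjusted p below 0.05. Except for Pde1a and Prkg1, each gene has a filled point between 1.31 and 2.08 for the inhibitor, a filled point between -2.22 and -1.22 for injury, and an open point near 0 for the third comparison.

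Counts per kilobase of exon allow a rough comparison of genes. The length used joins the exons of all annotated transcripts (14983 bases for Ppp1r12b and 1367 for Ppp1r14a), so the order depends on it. Which transcripts were expressed was not tested. On this scale Ppp1r14a was the highest of the 8 in each group, with means of 4780 in inhibitor-treated injured media, 1510.0 in injured media and 4910.5 in sham media. In sham media Ppp1r12a (1467 to 1623), Ppp1r12b (1210.1 to 1473) and Mrvi1 (1079.7 to 1439) followed, each range overlapping with the next, then Pde5a (502 to 544) and Pde3a (409 to 497), then Pde1a (114 to 127) and last Prkg1 (46.5 to 56.8). In injured media the order was Ppp1r14a, Ppp1r12a (512 to 602), Ppp1r12b (432 to 485), Mrvi1 (243 to 307), Pde3a (174 to 215), Pde5a (160.3 to 201), Pde1a (93.7 to 137) and Prkg1 (15.8 to 49.1). Among these only Pde3a and Pde5a overlapped as neighbours in the injured libraries. With the inhibitor the order was that of sham, and Ppp1r12a (1466 to 1616) overlapped with Ppp1r12b (1441 to 1509) and Pde5a (482 to 526) with Pde3a (449 to 493).

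Smooth muscle marker genes moved in the same direction. Of 10 markers, 9 passed as higher with the inhibitor than in injured media, where 17.6% of all genes did. In injured media 9 passed as lower than in sham, where 16.8% of all genes did. Their summed level was 605602 to 615552 in inhibitor-treated injured libraries, 155952 to 182644 in injured libraries and 514593 to 688628 in sham libraries. None of these markers was at 0 in any library. In bulk tissue, fewer smooth muscle cells and less RNA of a gene per cell cannot be told apart, and the part of this in the results was not tested. Relative to the mean log2 level of the 10 markers, Pde5a, Ppp1r12a, Ppp1r12b and Ppp1r14a overlapped between all 3 groups. The group means of this log2 difference for Ppp1r12a were -0.92 in inhibitor-treated injured, -0.76 in injured and -0.84 in sham libraries. Mrvi1 stood lower against the markers after injury, at -1.66 to -1.41 in inhibitor-treated injured libraries, -2.07 to -1.85 in injured libraries and -1.36 to -1.28 in sham libraries, with no overlap between groups. Pde1a stood higher against them after injury, at -5.10 to -4.99 in inhibitor-treated injured libraries, -3.84 to -3.20 in injured libraries and -5.06 to -4.63 in sham libraries. Pde3a was at -1.97 to -1.88 in inhibitor-treated injured libraries, just below the injured libraries (-1.87 to -1.46) with no overlap, while the sham libraries (-2.20 to -1.82) overlapped with both. Prkg1 overlapped between all groups, at -5.20 to -4.90 in inhibitor-treated injured libraries, -5.25 to -3.83 in injured libraries and -5.53 to -5.18 in sham libraries.

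**Figure D3:**
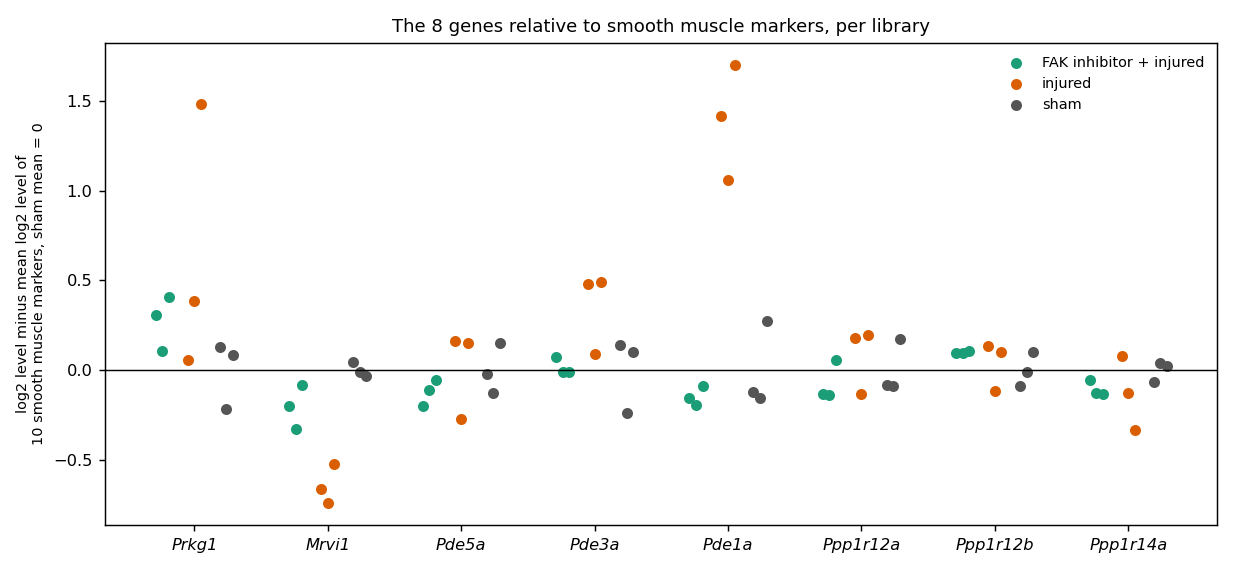
Log2 level of each of the 8 genes minus the mean log2 level of 10 smooth muscle markers in the same library, shifted so that the sham mean of each gene is 0, with FAK inhibitor-treated injured, injured and sham libraries from left to right for each gene. Points are libraries. The 3 injured points of Mrvi1 lie below all other points of that gene and the 3 injured points of Pde1a above all others, while those of Ppp1r12a, Ppp1r12b and Ppp1r14a lie on both sides of 0.

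Markers of other cell types also differed between the groups. Of all genes tested, 17.6% passed as higher and 18.5% as lower with the inhibitor than in injured media. In injured media against sham, 20.6% passed as higher and 16.8% as lower. Between inhibitor-treated injured media and sham, 6.08% passed in either direction. All 10 platelet markers passed as higher with the inhibitor than in injured media and than in sham, and their summed level was 11320 to 29762 in inhibitor-treated injured libraries, 926 to 1547 in injured libraries and 435 to 481 in sham libraries. In single libraries without the inhibitor, Gp6 or Treml1 was at 0. Platelets also carry the products of Pde5a, Pde3a, Prkg1 and Mrvi1, and the part of platelet RNA in their levels was not tested. The inhibitor-treated library with the most platelet marker RNA, replicate 2, had the lowest Prkg1 and Mrvi1 of its group and the highest Pde5a. Macrophage markers ran the other way, with all 10 lower with the inhibitor than in injured media and higher in injured media than in sham (summed level 5550.1 to 9597 in inhibitor-treated injured libraries, 30567 to 46104 in injured libraries and 3525 to 4826 in sham libraries). Endothelial markers (7 of 10 lower with the inhibitor than in injured media and 7 of 10 higher in injured media than in sham) summed to 30675 to 31954 in inhibitor-treated injured libraries, 35642 to 49338 in injured libraries and 24423 to 37614 in sham libraries. Fibroblast markers (1 of 10 higher and 7 of 10 lower with the inhibitor, 5 of 10 higher and 1 of 10 lower with injury) summed to 83430.2 to 90816 in inhibitor-treated injured libraries, 138028 to 182438 in injured libraries and 104529 to 131245 in sham libraries. Skeletal muscle markers (2 of 12 lower with the inhibitor and 9 of 12 higher with injury) summed to 2451 to 38441 in inhibitor-treated injured libraries, 32406 to 542762 in injured libraries and 5249 to 31097.5 in sham libraries. Schwann cell markers (3 of 10 lower with the inhibitor and 6 of 10 higher with injury) summed to 5298 to 6992 in inhibitor-treated injured libraries, 7224 to 9071 in injured libraries and 5576 to 6602 in sham libraries. Adipocyte markers (2 of 10 higher and 7 of 10 lower with the inhibitor, 1 of 10 higher and 2 of 10 lower with injury) summed to 24048 to 29707 in inhibitor-treated injured libraries, 37130.5 to 57909 in injured libraries and 23671 to 61745 in sham libraries. Where only 1 or 2 markers of a list passed in a direction, the count was near or below the share of all genes. The part of these cell types in the results was not tested. Erythroid markers summed to 38504 to 89835 in inhibitor-treated injured libraries and to at most 2049 elsewhere. Hepatocyte markers summed to 25509 in inhibitor-treated replicate 3 and to at most 205 elsewhere. Injured replicate 2, inhibitor-treated replicate 3 and sham replicate 3, the last with the most adipocyte marker RNA of its group (61745), stood apart by such markers. Without these 3 libraries, Mrvi1, Pde5a, Pde3a, Ppp1r12a, Ppp1r12b and Ppp1r14a kept their calls in both comparisons and Prkg1 did not pass (limma, adjusted p = 0.222 for the inhibitor and 0.192 for injury). Library depth was 14676891 to 21248740 reads.

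The genes nearest to each of the 8 in profile were sought among 11641 genes with a mean level of at least 100, by the root mean square distance of centred log2 levels over the 9 libraries. Pde5a and Ppp1r12a were nearest to each other, at a distance of 0.0595 log2 units, where the median gene was at 0.728 from Pde5a. Ncald (0.0733) and Fam212b (0.0826) were next to Pde5a, and Itga7 (0.0877) and Tmem8b (0.0949) next to Ppp1r12a. Nearest to Mrvi1 were Cnn1 (0.0873), the smooth muscle calponin, Fbxl22 (0.0882) and Chmp4c (0.0898), and nearest to Ppp1r12b were Actn1 (0.0836), Itga7 (0.0891) and Ntrk3 (0.106). Ppp1r14a lay nearest to Carns1 (0.0684), Bcam (0.0751) and Hip1r (0.0855), and Pde3a nearest to Bcar3 (0.0643), Gnb4 (0.0713) and Gne (0.0870). Prkg1 had no neighbour as close, its nearest being Adcy9 (0.108), Klhl11 (0.139) and Syne1 (0.141). The neighbours of Pde1a were genes that differed little between groups, Gm9752 (0.0481), Lrp1 (0.0557) and Dock1 (0.0730). These distances share the same 9 libraries and their scaling, and are descriptions.

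The phosphodiesterase family did not move as a block. Of 18 family members tested, 4 rose and 8 fell with the inhibitor relative to injured media, and 3 fell and 6 rose in injured media relative to sham. Of all genes, 17.6% passed as higher and 18.5% as lower in the first comparison, and 16.8% as lower and 20.6% as higher in the second. The 4 that rose with the inhibitor and the 3 that fell with injury were near these shares. The median log2 difference over the family was -0.69 with the inhibitor and 0.47 with injury, beside 0.00606 and -0.00256 over all genes. Pde4a, which hydrolyses cAMP, was the third member that fell with injury beside Pde5a and Pde3a. It averaged 962 ± 189 normalised read counts in inhibitor-treated injured media, 499 ± 8.28 in injured media and 852 ± 160 in sham media (SD, n = 3 each), with log2 differences of 0.93 ± 0.15 for the inhibitor (limma adjusted p = 0.00289) and -0.76 ± 0.15 for injury (limma adjusted p = 0.00441).

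The members that rose with injury were Pde1b, Pde7b, Pde8a, Pde9a, Pde10a and Pde11a, and all 6 fell with the inhibitor. Pde3b (log2 difference -0.71, limma adjusted p = 0.0235) and Pde8b (-0.95, limma adjusted p = 0.0317) also fell with the inhibitor. Pde4d rose with it (0.67, limma adjusted p = 0.0257). Pde3b, Pde8b and Pde4d did not pass with injury. Pde1b, the calcium-activated relative of Pde1a, averaged 146 ± 15.7 normalised read counts in inhibitor-treated injured media, 345 ± 17.0 in injured media and 131 ± 10.3 in sham media. Its log2 differences were -1.23 ± 0.13 with the inhibitor (limma adjusted p = 0.000558) and 1.38 ± 0.14 with injury (limma adjusted p = 0.000176). Pde9a, which like Pde5a hydrolyses cGMP and not cAMP, averaged 138 ± 9.94 in inhibitor-treated injured media, 225 ± 43.3 in injured media and 135 ± 22.7 in sham media, opposite in direction to Pde5a in both comparisons, although neither call of Pde9a held without the 3 libraries that stood apart (limma, adjusted p = 0.17 for the inhibitor and 0.132 for injury). Pde10a averaged 61.4 ± 5.58 in inhibitor-treated injured media, 141 ± 15.2 in injured media and 45.4 ± 15.6 in sham media. Pde11a, another enzyme for both cyclic nucleotides, averaged 6.10 ± 4.68 in inhibitor-treated injured media, 56.2 ± 17.7 in injured media and 5.52 ± 2.20 in sham media. Pde7b, which hydrolyses cAMP, averaged 308 ± 67.9 in inhibitor-treated injured media, 561 ± 49.4 in injured media and 182 ± 31.3 in sham media, and Pde8a, also a cAMP enzyme, 258 ± 25.6 in inhibitor-treated injured media, 604 ± 104 in injured media and 247 ± 67.4 in sham media. The summed levels of the macrophage, endothelial and fibroblast markers given above moved in the same direction as these 6 genes, and the part of these cell types was not tested. With libraries scaled on ribosomal protein genes, 2 and not 8 family members passed as lower with the inhibitor (Pde1b and Pde11a), and without the 3 libraries that stood apart 4 did. No called member of the family changed sign under these settings.

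**Figure D4:**
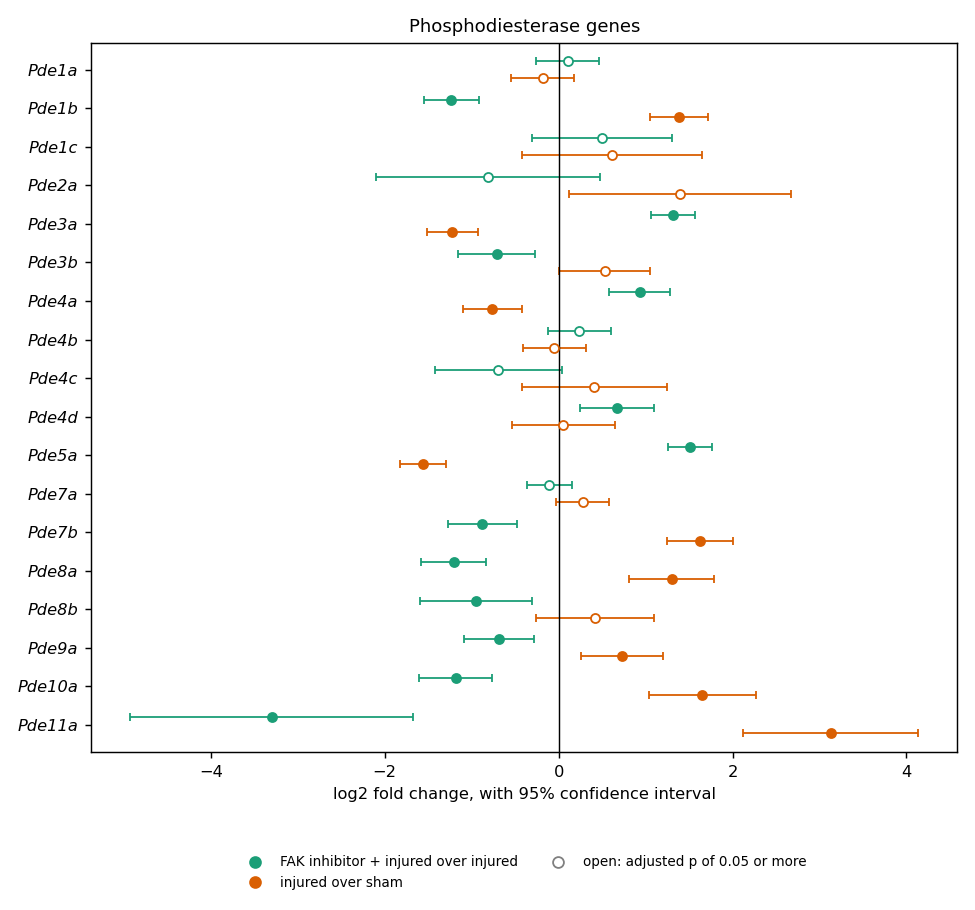
Log2 fold change of 18 phosphodiesterase genes with 95% confidence intervals from limma, for FAK inhibitor-treated injured over injured and for injured over sham; filled points had an adjusted p below 0.05. Pde3a, Pde4a and Pde5a lie to the right for the inhibitor and to the left for injury, Pde1b, Pde7b, Pde8a, Pde9a, Pde10a and Pde11a the other way round, and Pde1a lies near 0 in both. Pde4d (right) and Pde3b and Pde8b (left) are filled for the inhibitor only.

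Upstream of Prkg1, some genes of cGMP synthesis and of the natriuretic peptide receptors fell with injury. Of 9 tested, 5 fell and 1 rose in injured media relative to sham (median log2 difference -0.99), where 16.8% of all genes tested fell and 20.6% rose. The 5 were Gucy1a1, Gucy1b1, Npr1, Npr2 and Npr3, the last a clearance receptor rather than a cyclase. Nos1, Nos3 and Gucy1a2 did not pass in either comparison. With the inhibitor, 4 rose and 1 fell relative to injured media (median 0.51), where 17.6% of all genes tested rose and 18.5% fell. Gucy1b1, the beta subunit of soluble guanylyl cyclase, averaged 3750 ± 280 normalised read counts in inhibitor-treated injured media, 945 ± 258 in injured media and 3896 ± 362 in sham media. Its log2 differences were 2.02 ± 0.19 with the inhibitor (limma adjusted p = 0.000303) and -2.08 ± 0.19 with injury (limma adjusted p = 8.77e-05). Npr1, the receptor of atrial natriuretic peptide, averaged 7061 ± 238 in inhibitor-treated injured media, 1999.5 ± 115 in injured media and 8197 ± 722 in sham media, with log2 differences of 1.82 ± 0.09 (limma adjusted p = 3.81e-05) and -2.04 ± 0.11 (limma adjusted p = 1.57e-05). Gucy1a1 and Npr2 also fell with injury and rose with the inhibitor, the rise of Gucy1a1 missing the threshold without the 3 libraries that stood apart (limma, adjusted p = 0.0733). Npr3, the clearance receptor, was the 1 gene of this list that differed between inhibitor-treated injured media and sham, at 271 ± 40.8 in inhibitor-treated injured media and 405 ± 28.8 in sham media (log2 difference -0.57 ± 0.12, limma adjusted p = 0.0326), which passed in 9 of 18 other settings. Nos2, the inducible nitric oxide synthase, was the gene that rose with injury, with 12, 22 and 13 counts in inhibitor-treated injured libraries, 67, 49 and 71 in injured libraries and 1, 0 and 17 in sham libraries.

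Of 12 tested genes for cGMP kinases and their targets, 8 rose and 1 fell with the inhibitor (median 0.84), and 6 fell and 1 rose with injury (median -0.65). The shares of all genes tested were 17.6% higher and 18.5% lower with the inhibitor and 16.8% lower and 20.6% higher with injury. Prkg1 and Mrvi1, described above, are in this list, both among the 8 that rose and Mrvi1 among the 6 that fell. The receptor that Mrvi1 binds, Itpr1, averaged 6717 ± 225 normalised read counts in inhibitor-treated injured media, 3086 ± 701 in injured media and 6291 ± 532 in sham media. Its log2 differences were 1.15 ± 0.16 with the inhibitor (limma adjusted p = 0.00156) and -1.06 ± 0.17 with injury (limma adjusted p = 0.00156). Itpr2, another receptor of the same family, was the gene that went the other way, averaging 816 ± 87.9 in inhibitor-treated injured media, 1085 ± 99.3 in injured media and 684 ± 157 in sham media. Its fall with the inhibitor (-0.41 ± 0.12, limma adjusted p = 0.0312) and its rise with injury (0.68 ± 0.17, limma adjusted p = 0.0131) both missed the threshold under ribosomal protein scaling. Kcnmb1, the beta subunit of the calcium-activated potassium channel, averaged 3803 ± 155 in inhibitor-treated injured media, 773 ± 41.5 in injured media and 3988 ± 529 in sham media, and Kcnma1, the pore subunit, averaged 869 ± 72.7 in inhibitor-treated injured media, 474 ± 134 in injured media and 769 ± 80.0 in sham media. The log2 differences of Kcnmb1 were 2.30 ± 0.09 with the inhibitor (limma adjusted p = 2.5e-05) and -2.36 ± 0.13 with injury (limma adjusted p = 1.37e-05). Without the 3 libraries that stood apart by markers of other tissues, Kcnma1 did not pass in either comparison (limma adjusted p = 0.106 with the inhibitor and 0.143 with injury), and under ribosomal protein scaling it did not pass with injury (limma adjusted p = 0.0523). Prkg2, the other cGMP-dependent kinase, did not pass in either comparison.

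Among 9 tested genes for myosin phosphatase subunits and inhibitors, 5 rose and 1 fell with the inhibitor (median 1.14), and 5 fell and 1 rose with injury (median -0.89). Of all genes, 17.6% were higher and 18.5% lower with the inhibitor, and 16.8% lower and 20.6% higher with injury. Ppp1r12a, Ppp1r12b and Ppp1r14a, described above, are in this list and among the 5 in both counts. Ppp1r12c, the third of the targeting subunit genes, averaged 7963 ± 428 normalised read counts in inhibitor-treated injured media, 3640 ± 406 in injured media and 7874 ± 1096 in sham media. Of the catalytic subunit genes, Ppp1cb, which encodes the form that partners with the targeting subunits, had 27931, 32740 and 17511 in inhibitor-treated injured libraries, 6086, 6305 and 5685 in injured libraries, and 12227, 11390 and 9840 in sham libraries. The inhibitor-treated libraries were above both other groups, and Ppp1cb was higher than in sham by 1.19 ± 0.21 on the log2 scale (limma adjusted p = 0.0147). None of the 8 genes described above passed in this comparison, although the inhibitor-treated values of Prkg1 also lay above both other groups. The highest value of Ppp1cb was in inhibitor-treated replicate 2, the library with the most platelet and erythroid marker RNA, and the part of that RNA was not tested. Ppp1ca and Ppp1cc did not pass in any comparison. Ppp1r14b, a relative of Ppp1r14a that also inhibits the phosphatase, had 608, 783 and 646 in inhibitor-treated injured libraries, 2125, 1670 and 1032 in injured libraries, and 783, 816 and 1019 in sham libraries. It went the opposite way to Ppp1r14a, falling with the inhibitor (-1.19 ± 0.25, limma adjusted p = 0.00981) and rising with injury (0.82 ± 0.25, limma adjusted p = 0.03). Neither call held without the 3 libraries that stood apart (adjusted p = 0.12 and 0.0824).

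On the other side of the phosphatase, 8 of 17 tested genes for myosin phosphorylation and the RhoA pathway rose and 1 fell with the inhibitor (median 0.31), and 7 fell and 1 rose with injury (median -0.39). Of all genes, 17.6% rose and 18.5% fell with the inhibitor, and 16.8% fell and 20.6% rose with injury. Mylk, the light chain kinase that myosin phosphatase opposes, averaged 41664 ± 740 normalised read counts in inhibitor-treated injured media, 16886 ± 1033 in injured media and 38104 ± 3837 in sham media. Its log2 differences were 1.31 ± 0.11 with the inhibitor (limma adjusted p = 0.000216) and -1.18 ± 0.16 with injury (limma adjusted p = 0.0007). The regulatory light chain Myl9 and the essential light chain Myl6 fell with injury and rose with the inhibitor, as did Rock1, Rock2, Arhgef12 and Ilk. Rock1, a kinase that inhibits myosin phosphatase by phosphorylating its targeting subunit, differed by 1.30 ± 0.13 log2 with the inhibitor (limma adjusted p = 0.000453) and by -1.43 ± 0.16 log2 with injury (limma adjusted p = 0.000231). Rhoa, the small GTPase that activates the Rock kinases, did not pass in either comparison. Ilk resembled Prkg1 in its spread, with 855, 808 and 838 in inhibitor-treated injured libraries, 122, 278 and 416 in injured libraries, and 826, 841 and 687 in sham libraries. Its rise with the inhibitor did not pass without the 3 libraries that stood apart (limma, adjusted p = 0.101).

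**Figure D5:**
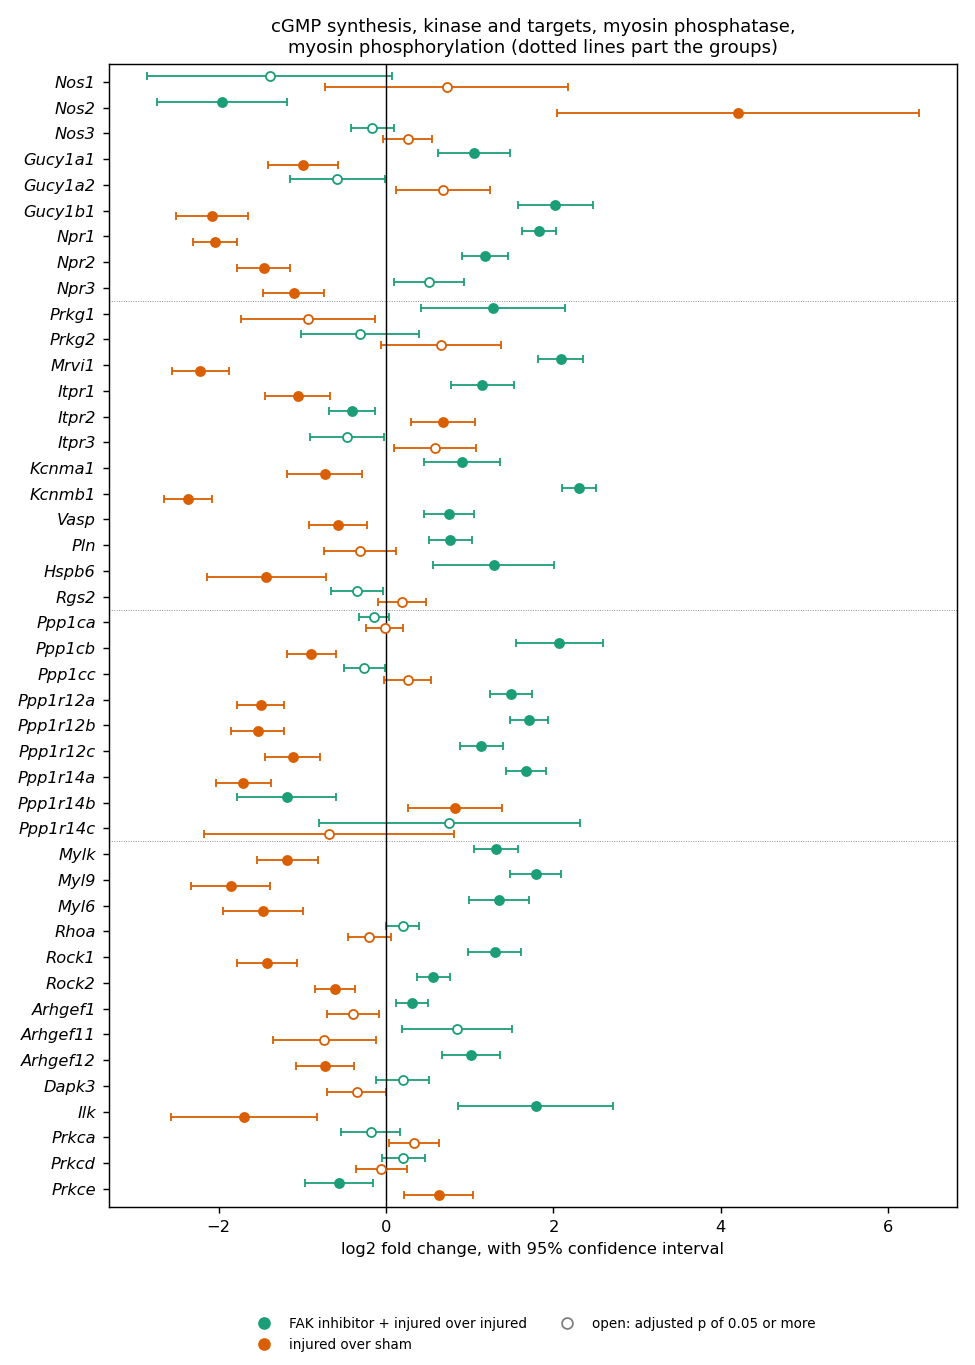
Log2 fold change with 95% confidence intervals from limma, for FAK inhibitor-treated injured over injured and for injured over sham, of genes for cGMP synthesis (top), cGMP kinases and targets, myosin phosphatase and its inhibitors, and myosin phosphorylation and RhoA signalling (bottom), parted by dotted lines; filled points had an adjusted p below 0.05. Most filled points for the inhibitor lie to the right and most for injury to the left, with Nos2, Itpr2, Ppp1r14b and Prkce filled on the opposite sides.

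Over the 5 lists without the 8 genes, 22 rose and 12 fell of 57 tested with the inhibitor relative to injured media (median log2 difference 0.20), and 20 fell and 10 rose of 57 with injury (median -0.06). The 12 that fell with the inhibitor and the 10 that rose with injury were near the shares of all genes, 18.5% and 20.6%, and they moved with the scaling, to 4 and 6 under ribosomal protein scaling. Without the 3 libraries that stood apart, 5 and not 12 fell with the inhibitor. Without sham replicate 2, 6 and not 10 rose with injury. Between inhibitor-treated injured media and sham, 2 of 56 were higher (Ppp1cb and Arhgef12) and 1 was lower (Npr3), where 6.08% of all genes passed in either direction. Of the 18 other settings, Ppp1cb passed in 15, Arhgef12 in 7 and Npr3 in 9. Without the 3 libraries that stood apart, Arhgef12 and Npr3 did not pass (limma adjusted p = 0.17 and 0.184). None of the 41 calls with the inhibitor and the 36 calls with injury in these lists, the 8 genes included, changed sign under any of the other settings tried, and 23 and 30 of them passed in every setting.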

How the data were processed

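Normalised read counts per gene were deposited by the authors in 3 tables, 1 per pair of groups, each scaled within its pair, with the authors' log2 fold changes and p-values. Neither a header nor a label gives the aligner or counter, and the deposited scaled counts are of the signal type, not raw counts. Per the submitters' processing notes, the builds were mm10 and GRCm38. In each library the values were whole multiples of 1 step within 0.01 read in 100% of genes, so reads were recovered, and they were equal between tables in all 143802 gene and library pairs compared. The tables held 16933, 16315 and 16187 genes. Levels over the 9 libraries are recovered reads divided by a median-of-ratios factor over 16750 genes in at least 2 tables. Per-kilobase levels use the joined length of all GENCODE M21 exons of a gene.

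Tests stayed inside the table of a comparison and used limma 3.58.1 under R 4.3.3 (trended variance, two-sided) on log2(normalised count + 1), for genes with a mean of at least 10, with Benjamini-Hochberg adjustment over all of them and a threshold of 0.05. Fold changes are on that log2 scale. Alternatives were a pseudocount of 8, no filter, a mean of at least 50, TMM, quantile and ribosomal protein scaling, edgeR 4.0.16 and DESeq2 1.42.0 on recovered reads, the authors' test, 1 fit over 9 libraries, a replicate block, and libraries left out. The test was tried on simulated data. The 8 genes and the lists were chosen with earlier results of these data known. All 8 genes, any list gene, and the 3 nearest profiles per gene could be named. No 2 replicates were alike within sampling noise (lowest chi-square per degree of freedom 11.2). Not every gene of the lists is reported or drawn here.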

Additional observations from a re-analysis of the deposited data

How the results depend on the processing

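Mrvi1, Pde5a, Pde3a, Ppp1r12a, Ppp1r12b and Ppp1r14a kept their direction and passed in all 18 other settings for the inhibitor against injured media and in all 18 for injury against sham. Prkg1 passed in 11 of 18 for the inhibitor and in 2 of 18 for injury, and the cause was not tested. The count of the 8 genes that passed was 6 to 8 when 1 library was left out, for the inhibitor and for injury alike, and 0 for inhibitor-treated injured media against sham. Against sham, ribosomal protein scaling gave 1 (Prkg1, log2 difference 0.48, adjusted p = 0.0364), and that scaling moved the median of all genes by 0.37 for the inhibitor, -0.23 for injury and 0.11 against sham. It also turned the signs of Pde5a (0.0822), Pde1a (0.0562) and Ppp1r14a (0.0998) against sham, differences that did not pass in any setting. Other uncalled differences crossed 0. For inhibitor-treated over untreated injured media Pde1a was at -0.000347 without injured replicate 2 and at -0.00771 without the 3 libraries that stood apart. Against sham, Pde5a was at 0.00313 without inhibitor-treated replicate 1, Ppp1r12a at -0.0321 without inhibitor-treated replicate 3, -0.0133 without sham replicate 1, -0.00143 without sham replicate 3 and -0.0467 without the 3 libraries, and Ppp1r14a at 0.0151 without inhibitor-treated replicate 3 and 0.088 without sham replicate 2. With 1 library left out, the ranges were -0.000347 to 0.279 for Pde1a with the inhibitor and, against sham, -0.0617 to 0.00313 for Pde5a, -0.0321 to 0.0544 for Ppp1r12a and -0.107 to 0.088 for Ppp1r14a. On the recovered reads edgeR called 5962, 6055 and 899 of all genes for inhibitor against injured, injury against sham and inhibitor against sham. Over all genes, 6099 passed for the inhibitor, 3069 without the 3 libraries and 4099 to 7938 with 1 library left out. Against sham 983 passed, and 518 to 822 with 1 library left out. For the inhibitor 2976 genes were higher and 3123 lower, and 3307 and 1416 under ribosomal protein scaling. For injury 3346 were higher and 2730 lower, 2134 and 2348 under ribosomal protein scaling, and 2842 and 3344 under quantile normalisation. For inhibitor-treated injured media against sham 832 were higher and 151 lower, and 617 and 220.0 under quantile normalisation.

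The labels do not say whether the same replicate numbers pair the libraries. The correlations of deviations between same-numbered libraries were 0.00443, 0.192 and 0.0164 for inhibitor-treated and injured, 0.0481, -0.0633 and -0.0761 for injured and sham, and 0.112, -0.0682 and 0.0713 for inhibitor-treated and sham. Between differently numbered libraries they were -0.213 to 0.183. With 3 libraries a group these values cannot decide whether libraries were paired. With a replicate block 7, 6 and 0 of the 8 genes passed, and 5747, 5762 and 877 of all genes, for inhibitor against injured, injury against sham and inhibitor against sham. It changed no call among the 8. With 3 libraries a group, small differences such as those of Pde1a or against sham are bounded only by their confidence intervals. Fold changes are relative to the median gene, since the scaling set the median log2 difference over all genes near 0. It was 0.00606 for inhibitor against injured, -0.00256 for injury against sham and -0.00726 for inhibitor against sham.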
